A study of Bos taurus with 4 samples.

Results

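A group of 10 genes that build the microvilli of the intestinal brush border was followed by symbol in all 4 deposited count files: VIL1, PLS1, ESPN, EPS8, EZR, MYO1A, CDHR2, CDHR5, USH1C and MYO7B. All 10 were found, each on 1 of the 29792 gene rows. The genes were taken by symbol, with no threshold on a measured value, but with earlier results of these data known. The question was whether the genes of microvillus structure followed the digestive enzymes between intestinal organoids at passage 5 (P5) and passage 10 (P10).

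A microvillus is a finger of membrane around a core of parallel actin filaments, and many of them, packed side by side, form the brush border of an enterocyte, the absorptive cell of the intestine. Actin-bundling proteins hold the core together, linker proteins and small myosins tie the membrane to it, and a complex of cadherins, scaffolds and a myosin joins the tips of neighbouring microvilli. The same membrane carries the digestive enzymes that split sugars and peptides. Microvilli lengthen and pack as cells leave the crypt, where stem cells divide, and mature on the villus.

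The 4 libraries, 1 for each condition, were of bovine small intestine, muscle, P5 organoids and P10 organoids, all labelled as Hanwoo cow. Organoids were grown in Matrigel and Intesticult medium from jejunal crypts of healthy Hanwoo over 24 months old. The study gives this age for the cattle it used, with no other age for intestine or muscle. Intestine and muscle were uncultured tissue, and muscle was the control tissue of the study. Whether the libraries came from the same animal is not given in the sources used here, and with a single library at P5 and at P10, passage cannot be told apart from differences between cultures or libraries. No difference therefore has a replicate check, no p-value is given, and every error below covers the counting of reads only, which is too small where PCR copies were counted as separate reads.

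The QuantSeq libraries, which read the 3′ end of each transcript, held between 12917720 and 17776273 counted reads. Levels are given as CPM, counts per 1000000 reads of the library. Differences are given as log2 differences of quantile-normalised read counts with 1 added, with a standard error of counting, so that -1 is 2-fold lower. The labels were checked against cell type markers. Summed over the 10 epithelial markers, P5 organoids stood at 11779 CPM, P10 organoids at 10825 CPM, intestine at 2383 CPM and muscle at 63.9 CPM. In both organoid libraries the summed markers of skeletal muscle, smooth muscle, stroma, immune cells and endothelium each lay between 0.282 and 15.7 CPM, and DES, COL3A1, DCN, LUM, CD74 and KDR were at 0 reads. The intestine library held 2518 CPM of smooth muscle, 1180 CPM of stromal and 6251 CPM of immune markers, all above those of the organoids. The muscle library held 51975 CPM of skeletal muscle markers. Among other epithelial cell types, the summed goblet cell markers stood at 1395 CPM in P5 and 1027 CPM in P10 organoids, against 6136 CPM in intestine.

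All 10 microvillus structure genes were lower in P10 than in P5 organoids. The median log2 difference was -1.67 (counting standard error 0.047), against 0.061 over the 16131 rows with at least 10 reads in either organoid library. Of the 10 genes, 8 were at least 2-fold lower and 2, VIL1 and EPS8, were not. Among those 16131 rows, 15.8% were at least 2-fold lower and 16.1% at least 2-fold higher. All 10 were below both 0 and the median of all genes in each of the 9 alternative scalings and filters, and 8 were at least 2-fold lower in each. In RNA of whole organoids, fewer enterocytes and less RNA of these genes per cell cannot be told apart.

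**Figure D1:**
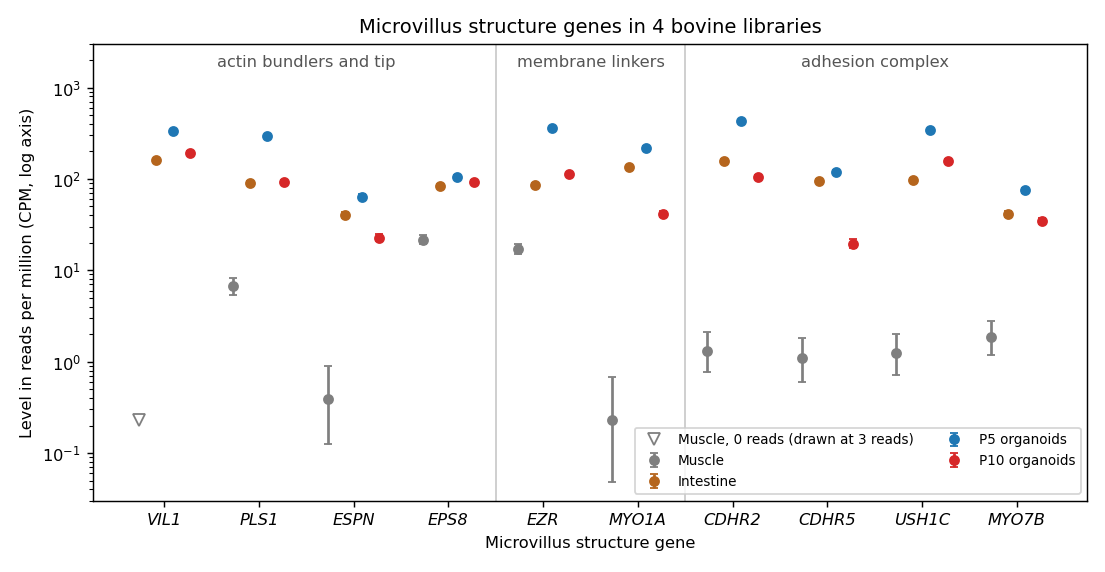
Level of the 10 microvillus structure genes in CPM (log axis) in muscle, intestine, P5 organoids and P10 organoids, 1 library each, with 95% exact Poisson intervals of the reads; the open triangle is VIL1 in muscle, with 0 reads, drawn at the level of 3 reads. P5 organoids were highest and muscle lowest for all 10 genes, and CDHR5 stood at 119 CPM in P5 and 19.6 CPM in P10 organoids.

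The actin bundlers and the tip protein differed among themselves. VIL1 encodes villin, which bundles, caps and severs actin filaments depending on calcium. It had 161 CPM in intestine (2865 reads), 0 reads in muscle, 335 CPM in P5 organoids (4551 reads) and 193 CPM in P10 organoids (3427 reads). P5 organoids were highest and P10 organoids and intestine followed, with no overlap of their 95% exact Poisson intervals. The log2 difference between the passages was -0.83 (standard error 0.036). VIL1 was at the same normalised level in P10 organoids and intestine (log2 difference 0.0046, standard error 0.039), but higher in P10 organoids per library total, with a 95% exact interval of 1.14 to 1.26 for the ratio of CPM.

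PLS1 encodes plastin 1, also called fimbrin, which spaces the filaments of the core evenly. It had 91.3 CPM in intestine (1623 reads), 6.66 CPM in muscle (86 reads), 295 CPM in P5 organoids (4011 reads) and 93.1 CPM in P10 organoids (1650 reads). P5 organoids stood above the other libraries, and the intervals of P10 organoids and intestine overlapped. The log2 difference between the passages was -1.76 (standard error 0.044). By the RefSeq annotation of ARS-UCD2.0 from NCBI, the PLS1 gene overlaps LOC100847999, a non-coding RNA. P5 organoids held 4990 reads of LOC100847999, P10 organoids 1934, intestine 1669 and muscle 72. These counts are close to those of PLS1 and differed likewise between the passages (log2 difference -1.85), so the value of PLS1 is uncertain. Whether the same reads were counted on both rows was not tested.

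ESPN encodes espin, a bundler that lengthens actin protrusions. It had 40.2 CPM in intestine (715 reads), 0.387 CPM in muscle (5 reads), 63.8 CPM in P5 organoids (867 reads) and 22.8 CPM in P10 organoids (405 reads). P10 organoids lay below intestine, and P5 organoids above it, with no overlap of intervals. The log2 difference between the passages was -1.57 (standard error 0.083).

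EPS8 encodes a protein of the microvillus tip that caps and bundles actin. It had 84.0 CPM in intestine (1493 reads), 21.7 CPM in muscle (280 reads), 105 CPM in P5 organoids (1427 reads) and 93.0 CPM in P10 organoids (1649 reads). The libraries other than muscle were closest together here of all 10 genes. The log2 difference between the passages was -0.23 (standard error 0.054), and 38.0% of all rows lay lower. EPS8 is also expressed outside the intestine.

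Of the linkers of membrane and core, MYO1A differed more between the passages than every bundler, and EZR as much as PLS1 within counting error. EZR encodes ezrin, which ties membrane proteins to actin once it is phosphorylated. It had 86.6 CPM in intestine (1540 reads), 17.2 CPM in muscle (222 reads), 361 CPM in P5 organoids (4912 reads) and 112 CPM in P10 organoids (1991 reads). P10 organoids were above intestine by 0.11 on the log2 scale (standard error 0.053), and P5 organoids by 1.89. The log2 difference between the passages was -1.78 (standard error 0.041), the same as that of PLS1 within counting error. By the annotation used for PLS1, EZR overlaps LOC132346145, a protein-coding gene, and whether they share reads was not tested.

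MYO1A encodes brush border myosin I, the motor that forms the lateral bridges between the core and the membrane. It had 134 CPM in intestine (2386 reads), 0.232 CPM in muscle (3 reads), 220 CPM in P5 organoids (2989 reads) and 41.4 CPM in P10 organoids (734 reads). The level in P10 organoids was 0.188 times that in P5 organoids per library total (95% exact interval 0.174 to 0.204) and 0.308 times that in intestine. Its log2 difference between the passages was -2.51 (standard error 0.063), and 2.47% of all rows lay lower.

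The intermicrovillar adhesion complex had 4 members among the 10 genes. CDHR2 and CDHR5 encode the cadherins that meet between the tips of neighbouring microvilli. CDHR2 had 158 CPM in intestine (2815 reads), 1.32 CPM in muscle (17 reads), 435 CPM in P5 organoids (5912 reads) and 106 CPM in P10 organoids (1884 reads). CDHR5 had 94.8 CPM in intestine (1685 reads), 1.08 CPM in muscle (14 reads), 119 CPM in P5 organoids (1623 reads) and 19.6 CPM in P10 organoids (347 reads). Both were highest in P5 organoids, and P10 organoids lay below intestine with no overlap of intervals. The log2 difference between the passages was -2.09 (standard error 0.042) for CDHR2 and -2.69 (standard error 0.084) for CDHR5, the lowest of the 10 genes.

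USH1C encodes harmonin, the scaffold that holds the cadherin tails, and MYO7B the myosin that carries the complex along the core. USH1C had 96.8 CPM in intestine (1720 reads), 1.24 CPM in muscle (16 reads), 346 CPM in P5 organoids (4699 reads) and 158 CPM in P10 organoids (2809 reads). MYO7B had 41.0 CPM in intestine (729 reads), 1.86 CPM in muscle (24 reads), 74.9 CPM in P5 organoids (1018 reads) and 34.9 CPM in P10 organoids (618 reads). USH1C in P10 organoids was above intestine and MYO7B below it. Both had a log2 difference between the passages of -1.19 (standard errors 0.036 and 0.072), less far from 0 than that of either cadherin. ANKS4B, the ankyrin-repeat scaffold of the same complex, had a difference of -2.17 (2507 reads in P5 and 778 in P10 organoids). CALML4, a light chain of MYO7B, had one of -0.78 (6027 and 4624 reads).

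In the order of their differences, the 10 genes ran from CDHR5, MYO1A, CDHR2, EZR, PLS1, ESPN, MYO7B and USH1C to VIL1 and EPS8. The neighbours CDHR5 and MYO1A, EZR and PLS1, and MYO7B and USH1C did not differ from each other beyond counting error. Each of the other 6 neighbouring pairs differed by more than the 95% interval of counting. These errors hold no variation between cultures.

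**Figure D2:**
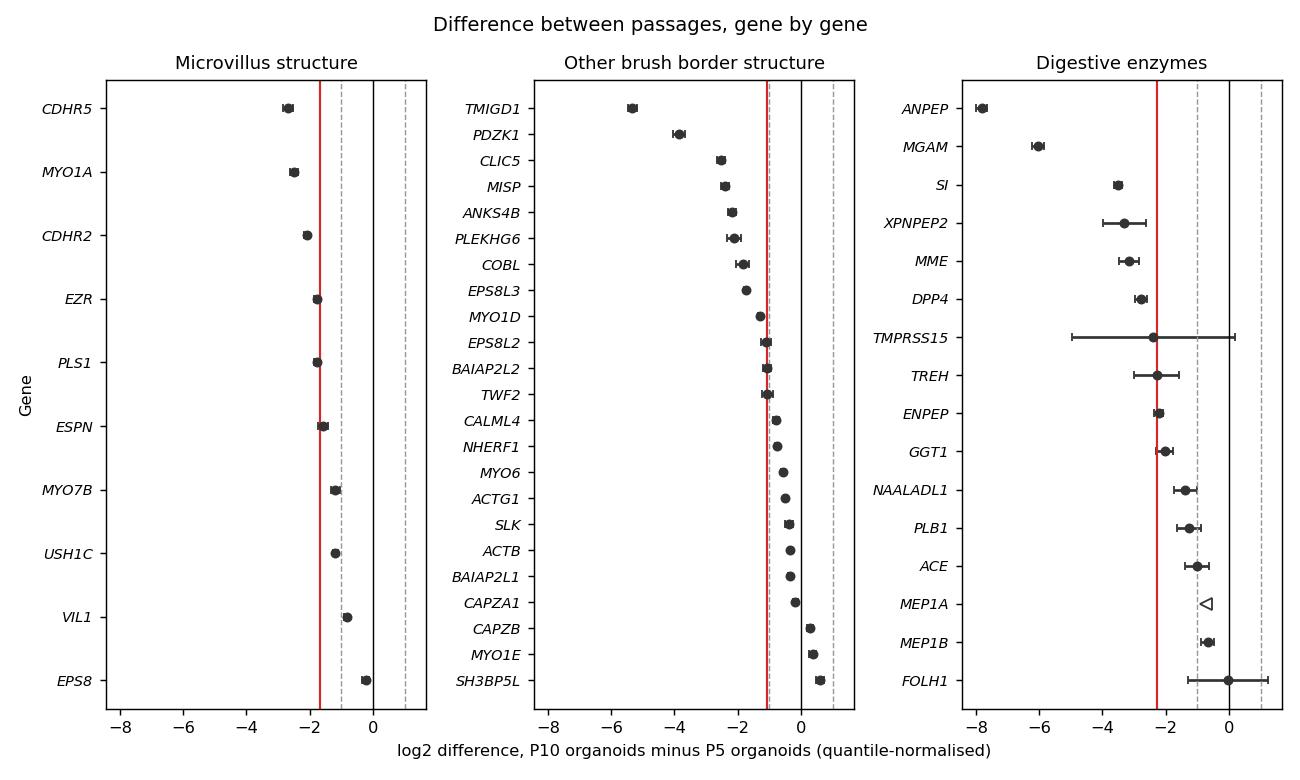
Log2 difference of P10 and P5 organoids (1 library each) for each microvillus structure gene, each other brush border structure gene and 16 digestive enzymes, with bars of 95% counting intervals; the red line is the median of the whole list, dashed lines mark 2-fold, and the open triangle is MEP1A, at 0 reads in P10 organoids, drawn at its bound. All 10 microvillus genes lie left of 0, between -2.69 and -0.23, while ANPEP reaches -7.82.

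Reads of the other members were also set against those of VIL1 in the same library, which needs no scaling between libraries. For 100 VIL1 reads, MYO1A had 65.7 reads in P5 organoids (counting standard error 1.5) and 21.4 in P10 organoids (standard error 0.87), against 83.3 in intestine. CDHR5 had 35.7, 10.1 and 58.8 reads in the same order, and CDHR2 130, 55.0 and 98.3. EZR stood at 108 reads in P5 and 58.1 in P10 organoids, near the 53.8 of intestine. EPS8 alone of the 9 genes was higher relative to VIL1 in P10 organoids, with 48.1 reads against 31.4 in P5 organoids and 52.1 in intestine. MYO7B and USH1C were nearest to VIL1 in their difference, with 22.4 and 18.0 reads for MYO7B and 103 and 82.0 for USH1C in P5 and P10 organoids.

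**Figure D3:**
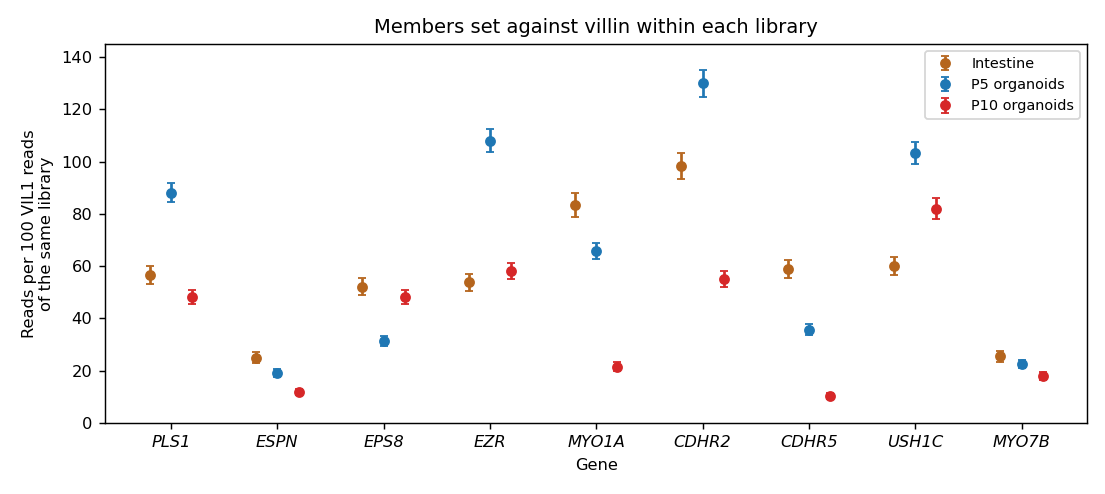
Reads of 9 microvillus structure genes per 100 VIL1 reads of the same library in intestine, P5 organoids and P10 organoids, with bars of 95% counting intervals. EPS8 stood at 31.4 reads in P5 and 48.1 in P10 organoids, and the other 8 genes were lower in P10 than in P5 organoids.

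The digestive enzymes of the brush border were lower in P10 organoids as well, and several by much more. The list held 20 enzymes, of which LCT, ALPI and ENPP7 had 3 reads or fewer in both organoid libraries and have no value. The other 17 had values below 0, 14 of them at least 2-fold lower, beside 15.8% of all rows. Of these 17, 14 were lower past counting error under quantile normalisation, FOLH1 and TMPRSS15 were within it, and MEP1A has a bound only. TMPRSS15 had a single read in P10 organoids, which took a log2 value of 2.09 in this normalisation. Their median log2 difference was -2.29 (standard error 0.36), and that of the microvillus genes lay 0.62 above it (standard error 0.37), a gap within counting error under quantile normalisation. MEP1A, at 0 reads in P10 organoids, entered the median at its bound. Over the 14 enzymes with at least 50 reads in either organoid library, a limit chosen after seeing the data, the enzyme median was -2.53 and the gap 0.87. The gap was 1.14 when values were scaled by library totals, by TMM or by upper quartiles, past the same counting error, and 0.33 with a pseudocount of 5. The standard error of 0.37 is that of the gap of 0.62, and it was not computed anew for the 14 enzymes or the other settings. Whether the medians of structure genes and enzymes differed beyond this counting error therefore depended on the scaling. For the 14 enzymes it was not settled.

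The enzymes had a wider spread than the structure genes. ANPEP, aminopeptidase N, had 28104 reads in P5 organoids and 243 reads in P10 organoids, beside 125 reads in intestine and 152 reads in muscle. Its log2 difference between the passages was -7.82 (standard error 0.083), and -7.23 with library totals, past that counting error. MGAM, maltase-glucoamylase, had 8118, 181, 2735 and 34 reads in the same order (log2 difference -6.04). Both enzymes were high in P5 organoids, and no structure gene differed by as much. Of the 17 enzymes, 7 lay below CDHR5, the lowest structure gene, among them also SI, sucrase-isomaltase, with -3.50, XPNPEP2 with -3.31, MME with -3.14 and DPP4 with -2.78. The other 10 enzymes lay within or above the range of the structure genes, MEP1A by its upper bound only, so that its difference may lie lower. At the upper end, among enzymes with at least 50 reads, MEP1B, meprin beta, had a log2 difference of -0.68 (standard error 0.11) and PLB1, phospholipase B, one of -1.26. ACE, a peptidase, had 97 reads in P5 and 56 in P10 organoids.

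In summed reads the contrast was larger. The 10 structure genes summed to 2354 CPM in P5 and 875 CPM in P10 organoids, 2.69-fold lower, and the 20 enzymes to 4131 and 168 CPM, 24.7-fold lower, or 13.4-fold without ANPEP and FOLH1. Within a library the structure genes had 78.0 reads for 100 enzyme reads in intestine, 57.0 at P5 and 522 at P10. ANPEP held most enzyme reads in P5 organoids and FOLH1 many in intestine, with 8081 reads there and 8 and 6 in P5 and P10 organoids. Without both, an omission chosen after seeing the data, the ratios were 123, 114 and 570 reads in the same order. The ratio was several-fold higher in P10 organoids than in the other libraries either way.

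Of the 23 other genes of brush border structure, 20 were lower in P10 organoids and 3 higher. Of these, 12 were at least 2-fold lower, beside 15.8% of all rows, and none at least 2-fold higher, beside 16.1%, with a median of -1.06 (standard error 0.086). The lowest were TMIGD1, an adhesion molecule at the microvillus base, with 14255 reads in P5 and 649 in P10 organoids (log2 difference -5.33), PDZK1, a scaffold for apical transporters, with 2470 and 233 (-3.85), and CLIC5, which binds ezrin at the microvillus base, with 2848 and 685 (-2.53). The highest were CAPZB, an actin capping protein subunit (0.29), MYO1E, a class I myosin (0.38), and SH3BP5L (0.60). MISP, which bundles the rootlets of the core, stood at -2.40, EPS8L3, a relative of EPS8, at -1.75, and MYO1D, a relative of MYO1A, at -1.31. These 3 genes, like ANKS4B and CALML4 above, were named after their values were seen. ACTB had 63068 reads in P5 and 67855 in P10 organoids, and ACTG1 had 16070 and 20630. These cytoplasmic actins, which form the core, had log2 differences of -0.35 and -0.49 under quantile normalisation. Per library total, ACTG1 in P10 organoids was 0.985 times its level in P5 organoids (exact interval 0.965 to 1.005), within counting error. ACTB was 0.825 times its level in P5 organoids (exact interval 0.816 to 0.834). Whether ACTG1 was lower in P10 organoids therefore depended on the scaling.

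The genes of apical trafficking and polarity differed less. Of 20, 3 were at least 2-fold lower in P10 organoids, a share near the 15.8% of all rows, and 1 at least 2-fold higher, beside 16.1%, with a median of -0.39 (standard error 0.14). PARD6B, of the polarity complex, had 182 reads in P5 and 33 in P10 organoids (log2 difference -2.45), PALS1, an apical scaffold, 655 and 272 (-1.73), and RAB11FIP1, of recycling endosomes, 1204 and 810 (-1.03). MYO5B, the motor whose loss causes microvillus inclusion disease, was higher in P10 organoids, with 2042 and 3982 reads (0.58), as were VPS33B (0.89) and UNC45A (1.26). The median of these genes lay closer to 0 than that of the structure genes.

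Transcription factors of enterocytes were mixed. Of 11, 3 were at least 2-fold lower, beside 15.8% of all rows, and none at least 2-fold higher, beside 16.1%, with a median of -0.17 (standard error 0.042). CDX2 had 199 reads in P5 and 24 in P10 organoids (log2 difference -2.95, standard error 0.25), HNF4G 3180 and 1207 (-1.88), and KLF4 781 and 298 (-1.85). CDX1 was higher in P10 organoids (0.95), as was GATA6 (0.51). Genes of proliferation stood the other way from the structure genes. Of 15, 14 were higher in P10 organoids, with a median of 0.81. At least 2-fold higher were 3 (MCM5 1.87, MCM2 1.65 and RRM2 1.38), a share near the 16.1% of all rows. The lowest were TOP2A (-0.09), CCNA2 (0.21) and CCNB1 (0.37). The 10 epithelial markers had a median of -0.52 (standard error 0.036), 1.15 above that of the structure genes, and 3 of them were at least 2-fold lower and 1 at least 2-fold higher, beside the same 15.8% and 16.1%. The part of dividing cells and of total epithelial RNA in the difference of the structure genes was not tested.

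**Figure D4:**
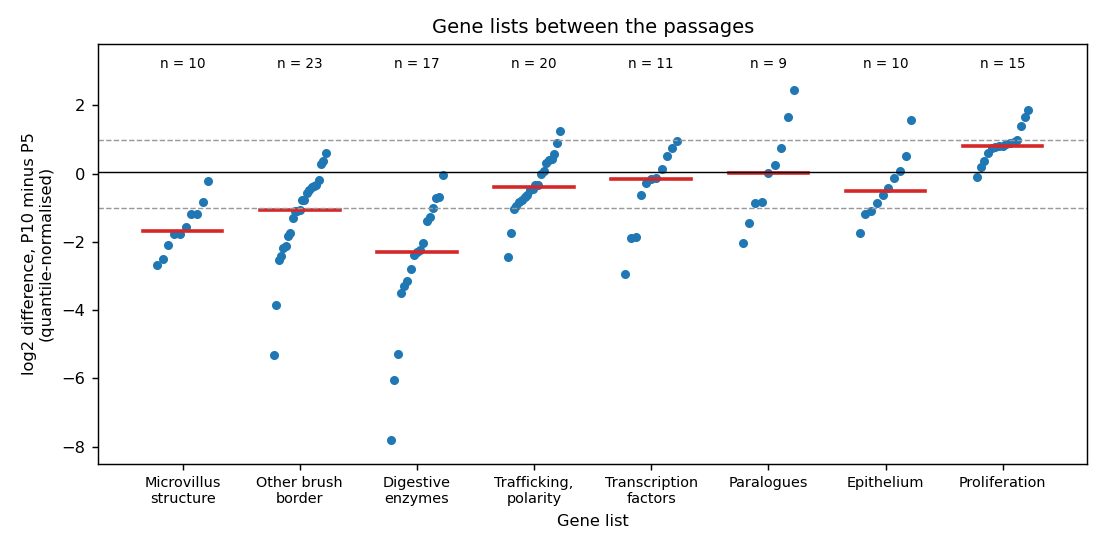
Log2 difference of P10 and P5 organoids for the genes of 8 lists, 1 point for each gene with more than 3 reads in either library, with red bars at list medians, a black line at the median of all rows (0.061) and dashed lines at 2-fold. Microvillus structure (median -1.67) and digestive enzymes (-2.29) lie lowest, and proliferation (0.81) highest.

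Against whole intestine, the structure genes stood higher in P5 organoids and near or below intestine in P10 organoids. All 10 were higher in P5 organoids than in intestine, with a median log2 difference of 0.75 (standard error 0.041). Under quantile normalisation EPS8 (0.07) and CDHR5 (0.09) were within counting error. Per library total both were past it, with 95% exact intervals for the ratio of CPM of 1.16 to 1.34 for EPS8 and 1.18 to 1.35 for CDHR5. At least 2-fold higher were EZR (1.89), USH1C (1.66), PLS1 (1.49) and CDHR2 (1.21), 4 of 10, beside 24.9% of all rows, and none was at least 2-fold lower, beside 21.0%. In P10 organoids the median was -0.40 (standard error 0.047), and 7 genes were lower and 3 higher than intestine, but 5 and 5 with library totals, and 6 and 4 with library totals without RN18S1, the row of 18S ribosomal RNA. At least 2-fold lower were CDHR5 (-2.60), MYO1A (-2.02) and ESPN (-1.11), beside 22.0% of all rows, of which ESPN was within 2-fold under those library totals. None was at least 2-fold higher, beside 28.0%. These comparisons share the intestine library.

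The epithelial markers were further above intestine than the structure genes, with medians of 2.25 in P5 and 1.90 in P10 organoids. The median of the structure genes lay 1.49 below theirs in P5 and 2.29 below in P10 organoids. Over the digestive enzymes, 10 were at least 2-fold higher and 9 at least 2-fold lower in P5 organoids than in intestine, beside 24.9% and 21.0% of all rows, with a median of 0.74. In P10 organoids 6 were at least 2-fold higher and 11 at least 2-fold lower, beside 28.0% and 22.0%, with a median of -1.61. The enzymes thus lay on both sides of intestine in both organoid libraries.

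**Figure D5:**
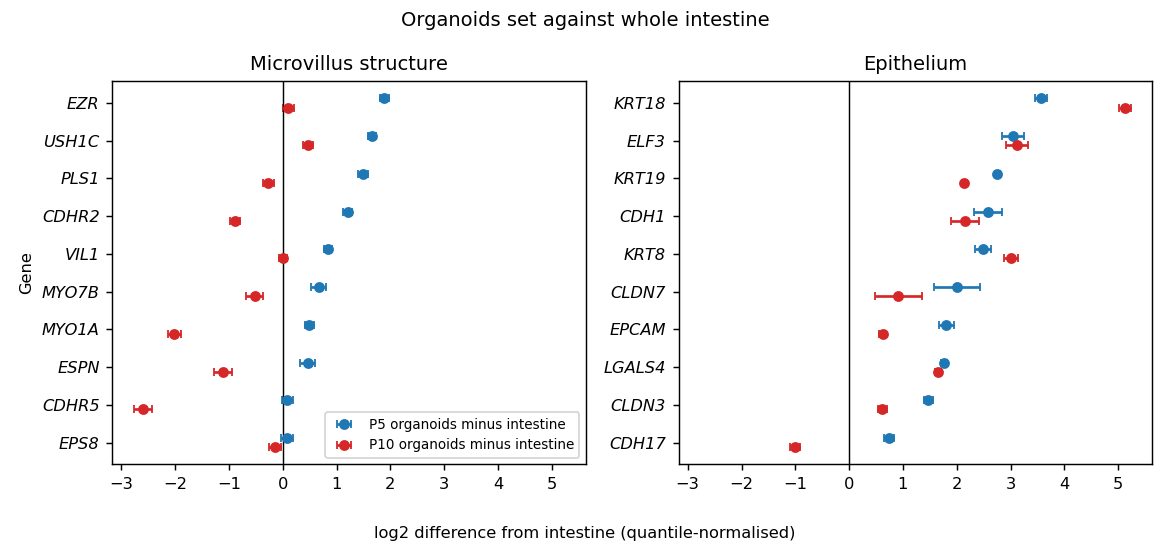
Log2 difference from intestine of P5 and P10 organoids for the 10 microvillus structure genes and the 10 epithelial markers, with bars of 95% counting intervals; both comparisons use the same intestine library. CDHR5 lies at 0.09 in P5 and -2.60 in P10 organoids, while KRT18 lies above 3 in both.

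Between intestine and muscle, the structure genes set the tissues apart. All 10 were higher in intestine, 9 of them at least 2-fold, beside 27.3% of all rows, with a median log2 difference of 5.37 (standard error 0.31). VIL1, with 0 reads in muscle, was at least 306-fold higher in intestine under quantile normalisation, against the value of 3 reads. In CPM it was at least 694-fold higher, against the same 3 reads. MYO1A had 3 reads in muscle, and the ratio of CPM was 578 (95% exact interval 198 to 2805). EPS8 (0.97), EZR (1.30) and PLS1 (2.61), all with known expression outside the gut, differed least. With library totals EPS8 was also past 2-fold, while the median of all genes moved from -0.03 to 1.26.

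Over all 4 libraries, the genes whose pattern was most like the mean of the 10 were found by the Euclidean distance of log2 values centred on each gene, among 11701 genes with at least 50 reads in P5 organoids. With a count of 0 left at a log2 value of 0, they were CCDC153 (distance 0.19), LIPH (0.21), HNF4G (0.23), C18H19orf33 (0.31) and LOC101903211 (0.32). With 0 reads set to the value of 3 reads, a change made after seeing the data, LIPH was the nearest (0.20) and HNF4G was also among the nearest 5 (0.38), while CCDC153, at 0 reads in muscle, ranked 1130 (2.39). LIPH had 1524 reads in P5 organoids, 641 reads in P10 organoids, 981 reads in intestine and 12 reads in muscle, and CCDC153 had 57, 16, 51 and 0. Of the members, ESPN was closest to their mean (0.47, or 0.69 with the value of 3 reads). VIL1 was at 5.73 and EPS8 at 3.67, or at 3.35 and 3.41 with that value, so which of them was the farthest depended on the 0 reads of VIL1 in muscle. The pattern rests on 4 points for each gene.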

How the data were processed

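RNA of 4 bovine libraries, 1 for each group, was measured by QuantSeq on total RNA extracted with Trizol. Reads were aligned by the authors with Bowtie2 and assigned to genes with Bedtools, with unique and multiple alignments included. The deposited values are raw read counts, 1 row a gene, which the authors had not normalised. Versions, genome build and annotation are not given in the sources used here, so no coordinates are given. Reads of genes with close relatives or overlapping neighbours may be shared.

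Rows at 0 reads in all 4 libraries were dropped, and the remaining 22200 of 29792 rows were quantile-normalised, the method named in the study's methods, and used as log2(value + 1). Low counts gained unequal values: a single read became 0.32 for intestine, 0.81 for P5 organoids, and 2.09 for both muscle and P10 organoids. The standard error of a log2 value was read from the normalisation at the count plus and minus its square root. The error of a median is that of its middle gene or genes. CPM have 95% exact Poisson intervals and ratios of CPM 95% exact binomial intervals. In differences a library with 0 reads was set to the value of 3 reads, 0.169 to 0.232 CPM, and in the search for like patterns 0 reads were left at 0, or set to that value as an alternative. No difference is given where both libraries had 3 reads or fewer. Shares of all rows are over rows with at least 10 reads in either library compared, a limit not set for the listed genes. These were 17783 rows for P5 organoids and intestine, 17803 for P10 organoids and intestine, and 17559 for intestine and muscle. With 1 library for each group, no test was run.

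The structure genes and lists were chosen with earlier results of these data known. All structure genes are named. Of the lists on brush border structure, trafficking, enzymes, paralogues, transcription factors and proliferation, the 3 largest and 3 smallest differences between the passages are named, where the higher organoid library held 50 reads or more. Some genes that this rule names are not reported here, but remain in the counts and medians of their lists. NHERF1, PALS1 and FOLH1 were found under older symbols in the NCBI RefSeq table of ARS-UCD2.0. No promoter or protein sequence was used here.

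An enzyme median over genes with at least 50 reads was added after seeing the data. Alternatives were library totals, TMM and upper-quartile normalisation with edgeR, a pseudocount of 0.1 or 5, a minimum of 10 reads in any library, no filter, rows summed by symbol, and library totals without RN18S1. A value was taken as moved when it left the 95% counting interval, and a count at 1.5-fold. Quantile normalisation was checked against limma and the steps were tested on simulated data. The scripts used edgeR 4.0.16 and limma 3.58.1 in R 4.3.3, and scipy 1.17.1, pandas 2.3.3 and numpy 2.4.6 in Python 3.11.15.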

Additional observations from a re-analysis of the deposited data

Results flagged for a closer look

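Of the 10 structure genes, 5 were above intestine in P5 organoids and below it in P10 organoids, each past counting error under quantile normalisation. For PLS1 in P10 organoids this did not hold per library total, where the ratio to intestine had a 95% exact interval of 0.951 to 1.09. The difference between the passages has no test here, since each passage has 1 library. Both comparisons with intestine share its library, and the share of all rows that changed sign likewise is not given here. In P10 organoids the log2 differences from intestine were -2.02 for MYO1A, -1.11 for ESPN, -0.89 for CDHR2, -0.52 for MYO7B and -0.27 for PLS1, and in P5 organoids they were 0.49, 0.47, 1.21, 0.67 and 1.49. MYO1A, ESPN, CDHR2 and MYO7B kept both signs in all 9 alternatives. PLS1 kept its negative sign in P10 organoids in 8 of 9, and LOC100847999, which overlaps it, stood at -0.07 in P10 and 1.78 in P5 organoids.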

How the results depend on the processing

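The 10 structure genes kept their direction between the passages in all 9 alternatives, with the lowest value at -2.71 for CDHR5 and the highest at -0.17 for EPS8. Of these 90 values, 87 stayed within the 95% counting interval of those given and 3 moved. Of 495 other values of single genes, 431 stayed within it, 61 moved and 3 moved with a change of sign. With library totals, TMM or upper quartiles, ANPEP moved to between -7.34 and -7.23 and TMIGD1 to between -4.95 and -4.84. With library totals, the median of the structure genes was -1.57 between the passages, 0.96 for P5 organoids and intestine, -0.10 for P10 organoids and intestine, and 6.29 for intestine and muscle. With library totals without RN18S1, it was 0.97 for P5 organoids and intestine and -0.16 for P10 organoids and intestine. In P10 organoids against intestine, PLS1 changed sign with library totals, to 0.027, and EPS8 to 0.15, or to 0.091 without RN18S1. The share of RN18S1 in the reads ran from 0.264% in P10 organoids to 23.6% in muscle. With TMM, the median of all genes moved from 0.11 to -0.08 for P5 organoids and from 0.17 to -0.12 for P10 organoids, both against intestine. The cause of these shifts was not tested. The enzyme median between the passages ran from -2.82 with upper-quartile normalisation to -1.99 with a pseudocount of 5. No replicate could be left out. Depth limited the enzymes with few reads in P10 organoids, such as TMPRSS15 with 17 reads in P5 and 1 in P10 organoids, and not the structure genes, all with at least 347 reads in both organoid libraries.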

Other observations

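The 10 relatives of the structure genes that other cells use lay on both sides. Of the 9 with a value between the passages, 4 were lower in P10 organoids and 5 higher, with 2 at least 2-fold lower (RDX and MYO7A) and 2 at least 2-fold higher, beside 15.8% and 16.1% of all rows. Against intestine, 5 were at least 2-fold lower in P5 organoids, beside 21.0% of all rows, and 2 at least 2-fold higher, beside 24.9%. EPS8L1 had 0 reads in intestine and 48 in P5 organoids. RDX, radixin, had 989 reads in intestine, 1728 in muscle, 28 in P5 and 9 in P10 organoids. MSN, moesin, had 479, 162, 14 and 66 reads in the same order, and its log2 difference between the passages was 1.67 (counting standard error 0.42). EZR, the third of this family, had its highest level in P5 organoids. Of the plastins, PLS3 had 95, 222, 3 and 1 reads, and LCP1, the form of white blood cells, 3104, 372, 158 and 274 (log2 difference between the passages 0.25). In the organoids the 7 stromal markers summed to 4.49 CPM in P5 and 0.282 CPM in P10, and the 7 immune markers to 6.03 and 10.2 CPM. Their part in these levels was not tested.

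FSCN1, fascin, which bundles the actin of filopodia, was higher in P10 organoids, with 380 reads against 41 in P5 organoids and 272 in intestine. Its log2 difference between the passages was 2.45 (standard error 0.21), the highest of the 9 relatives with a value. ESPNL, a relative of ESPN, had 146 reads in P10 and 104 in P5 organoids (log2 difference 0.01). TMIGD1 had 39 reads in intestine and 38 in muscle, beside 14255 in P5 organoids.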
